A study of Sus scrofa with 20 samples.

Results

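SLA-DMB and SLA-DQB1 are pig genes of the major histocompatibility complex (MHC) class II, and their transcripts are described here in backfat, the subcutaneous fat over the pig's back. The 2 genes were taken by name: each was the locus whose Ensembl gene identifier maps to that symbol, out of 23483 loci in the count and FPKM tables. Each symbol had 1 locus. The SLA-DMB locus carried ENSSSCG00000001469. The SLA-DQB1 locus carried ENSSSCG00000001457 together with ENSSSCG00000030750, an identifier with no symbol in the name table, so reads of the second gene model cannot be separated from those of SLA-DQB1.

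MHC class II molecules are pairs of an alpha and a beta chain that carry peptides from engulfed proteins to the cell surface, where CD4 T cells read them. SLA-DQB1 encodes the beta chain of the DQ molecule, one of the surface presenters, and in many mammals it is among the most variable genes. SLA-DMB encodes the beta chain of DM, which stays inside the cell, releases the invariant chain fragment from new class II molecules and helps them exchange peptides. Class II genes are known best from dendritic cells, macrophages and B cells, all of which can live in fat, and fat cells can also express them.

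The animals, 20 pigs of the Italian Large White breed, gave 1 polyadenylated RNA library each: 10 were females and 10 were males that had been castrated. Females were 235 to 250 days old and castrated males 233 to 249 days, at a body weight of 150 to 160 kg. All had the same housing and feed, and no group received a treatment. Castrated males lack testes, so the comparison of the sexes is not one with intact males, and the labels give no intact male. Libraries are named by labelled sex and a number that only follows deposit order. Counts summed to between 25754778 and 51248122 per library, with a median of 36922247. SLA-DMB rested on 1017 to 6836 counts per library and SLA-DQB1 on 5881 to 33338.

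Some libraries stood apart. At a locus without a gene identifier, 9 females had 546.8 to 1233 CPM (counts scaled to library size, with TMM factors) and 9 castrated males had 0 to 1.87, but the library labelled female 10 had 0.408 and the library labelled castrated male 10 had 988. At the locus of ENSSSCG00000026430 the order was the opposite: 9 females had 0.0200 to 1.31 CPM, 9 castrated males 224.9 to 325.3, the library labelled female 10 had 313, and the library labelled castrated male 10 had 0 counts, which allows up to 0.107 CPM. Both libraries numbered 10 therefore went against their sex labels at these loci. Castrated male 1 had the highest level of both genes. Sex differences and age slopes are given with these libraries and without them. The labelled tissue was checked against adipocyte markers: 8 of 13 listed genes had a locus, none was at 0 in all libraries, and PLIN4 and PLIN1, coat proteins of the fat droplet, averaged 1828 and 1232 CPM.

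Per transcript length, SLA-DQB1 was among the most abundant transcripts of backfat. Its mean was 405 ± 143 FPKM (SD, n = 20), rank 222 of 23483 loci. SLA-DMB averaged 44.3 ± 19.4 FPKM (SD, n = 20), rank 1838, with 92.2% of loci lower. FPKM are fragments per kilobase of transcript, scaled to library depth, so they allow 1 gene to be set against another. In every library SLA-DQB1 was the higher of the pair, by 7.05-fold in female 5 to 13.4-fold in female 6, with a mean FPKM ratio of 9.47 ± 1.69 (SD, n = 20).

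Among females, SLA-DMB ranged from 37.8 CPM in the library labelled female 10 to 68.6 in female 3, with a median of 45.9. Among castrated males it ranged from 44.0 CPM in castrated male 2 to 162 in castrated male 1, with a median of 59.8. The groups overlapped: 9 of the 10 castrated males lay between 44.0 and 89.4 CPM, and castrated male 1 stood alone above them. Female levels were unevenly spread. Female 10, 6, 2, 7, 8 and 4 had 37.8, 42.1, 42.6, 44.3, 45.5 and 46.4 CPM, and female 9, 5, 1 and 3 had 56.3, 62.8, 67.5 and 68.6.

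SLA-DQB1 ranged among females from 218 CPM in the library labelled female 10 to 403.5 in female 9, with a median of 297. Among castrated males it ranged from 252 CPM in castrated male 5 to 791 in castrated male 1, with a median of 333. Castrated male 6 was next at 430.5 CPM, so here too the groups overlapped and 1 library lay far above the rest. The same animals held the extremes of both genes, castrated male 1 and castrated male 6 at the top and the library labelled female 10 at the bottom. In the middle the order differed: female 9, with the highest female SLA-DQB1, was seventh from the bottom of the females for SLA-DMB, and female 3, with the highest female SLA-DMB, had 313 CPM of SLA-DQB1.

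**Figure D1:**
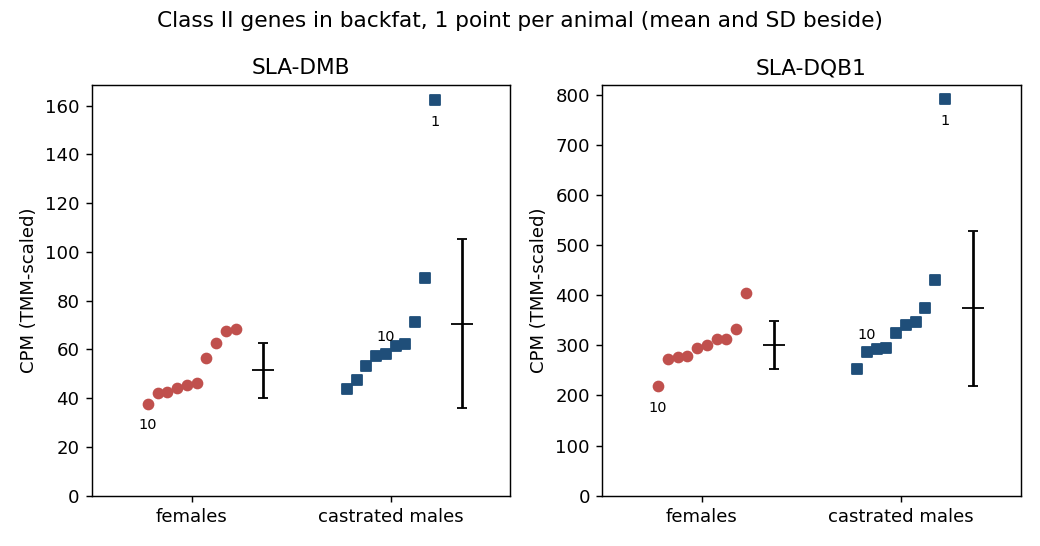
CPM of SLA-DMB and SLA-DQB1 in each of the 20 libraries, by labelled sex, each point 1 animal, with the group mean and SD; the libraries numbered 10 and castrated male 1 are marked. Castrated male 1 lies at 162 CPM for SLA-DMB and 791 for SLA-DQB1, and the other libraries of both groups overlap.

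The spread between animals was wide for SLA-DMB and depended on that library. From lowest to highest SLA-DMB spanned 4.30-fold and SLA-DQB1 3.62-fold, and without castrated male 1 they spanned 2.37-fold and 1.97-fold. With sex means removed, the SD of log2 CPM was 0.44 for SLA-DMB, above that of 83.5% of the 8769 loci with a mean of at least 10 CPM, whose median SD was 0.26. For SLA-DQB1 it was 0.36, above 73.4% of them. Leaving out castrated male 1 gave SDs of 0.31 and 0.23, above 64.9% and 40.8% of those loci.

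SLA-DQB1 RNA was assembled as 6 isoforms, of which 3 held at least 5% of the locus FPKM. TCONS_00081250, whose nearest reference transcript is ENSSSCT00000001617, held 45.4% ± 5.90 (SD, n = 20), from 35.3% in the library labelled female 10 to 58.2% in female 5. TCONS_00081249, with no nearest reference transcript, held 37.0% ± 6.94 (SD, n = 20), from 22.8% in the library labelled castrated male 10 to 48.8% in female 4. TCONS_00081248, also without one, was the most uneven. Castrated males 4 and 8 had 34.8% and 33.6% of it and the library labelled castrated male 10 had 32.5%, against 4.57% to 14.0% in the other 7 castrated males and 10.9% to 23.4% in the females. These shares come from estimates of isoform abundance at a locus with 2 gene models, and were not tested between the sexes. The SLA-DMB locus had a single isoform, TCONS_00081279, nearest to ENSSSCT00000001633.

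**Figure D2:**
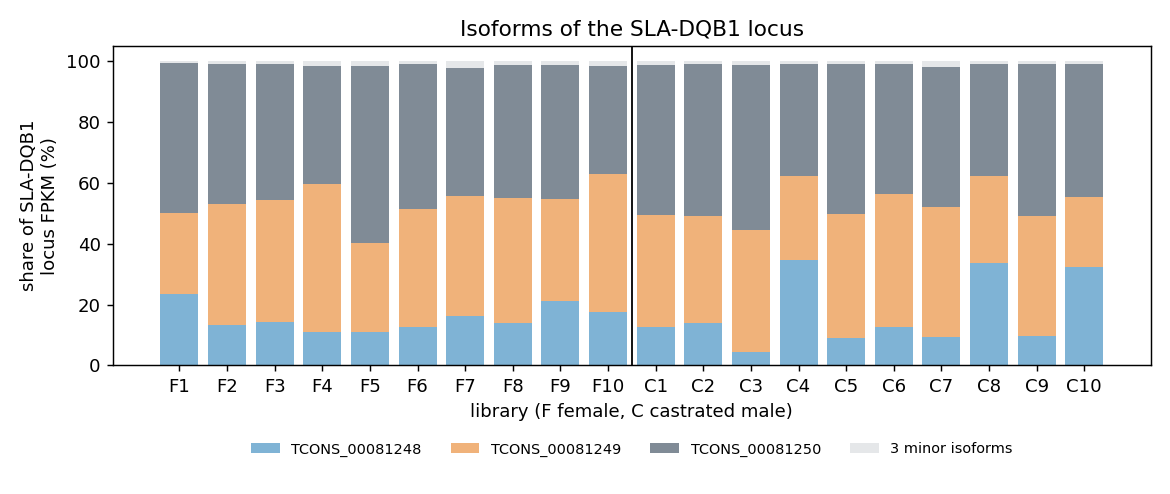
Share of the SLA-DQB1 locus FPKM (percent) held by each of its 3 main isoforms in every library, as stacked bars with the 3 minor isoforms on top, females left of the line and castrated males right. TCONS_00081248 is above 32% in castrated males 4, 8 and 10 and below 24% in every other library.

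The comparison of females with castrated males asked whether backfat differs between the sexes. Both genes averaged lower in females, and neither difference passed the adjusted test. SLA-DMB averaged 51.4 ± 11.4 CPM in females and 70.6 ± 34.6 in castrated males (SD, n = 10 each). The log2 difference, females minus castrated males, was -0.46 with a standard error of 0.20 and a 95% interval from -0.87 to -0.05 (edgeR quasi-likelihood test, p = 0.0288, Benjamini-Hochberg adjusted p = 0.99996). SLA-DQB1 averaged 300.4 ± 47.8 CPM in females and 374 ± 155 in castrated males (SD, n = 10 each). Its log2 difference was -0.32, with a standard error of 0.16 and an interval from -0.66 to 0.03 (edgeR, p = 0.0686, adjusted p = 0.99996). Of 21587 loci tested by edgeR, 0% passed the adjusted threshold of 0.05 and 4.33%, or 935, had an unadjusted p below 0.05. DESeq2 called 5 loci and limma-voom 9, neither gene among them.

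Both differences were smaller without castrated male 1. The other 9 castrated males averaged 60.5 ± 13.6 CPM of SLA-DMB and 327 ± 53.6 of SLA-DQB1 (SD, n = 9). The log2 differences were then -0.23 for SLA-DMB (edgeR, p = 0.105, adjusted p = 0.999) and -0.12 for SLA-DQB1 (p = 0.268, adjusted p = 0.999). Without the 2 libraries numbered 10 they were -0.44 and -0.30, and without all 3 libraries, an alternative chosen after seeing the data, -0.19 and -0.10. With limma-voom and quality weights they were -0.28 and -0.20, and with age in the edgeR model -0.33 and -0.22.

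Age was examined because the animals were slaughtered at different ages. With sex in the model, the log2 slope per 10 days was -0.31 for SLA-DMB, with a standard error of 0.21 and an interval from -0.75 to 0.12 (edgeR, p = 0.152, adjusted p = 0.871). For SLA-DQB1 it was -0.21, with a standard error of 0.18 and an interval from -0.58 to 0.15 (edgeR, p = 0.235, adjusted p = 0.876). By edgeR 0% of loci passed and 5.51%, or 1189, had an unadjusted p below 0.05, while DESeq2 called 6 and limma-voom 0. Without castrated male 1, aged 237 days, the slopes were -0.14 and -0.07. They were -0.26 and -0.16 without the libraries numbered 10, -0.079 and -0.013 without all 3 libraries, and -0.16 and -0.10 with limma-voom. The slopes of females minus those of castrated males differed by 0.18 for SLA-DMB (edgeR, adjusted p = 0.980) and 0.40 for SLA-DQB1 (adjusted p = 0.941), where 0% of loci passed, 5.42% (1170) had an unadjusted p below 0.05, and DESeq2 called 3 and limma-voom 0. The SLA-DMB value took the opposite sign, -0.31, without castrated male 1.

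**Figure D3:**
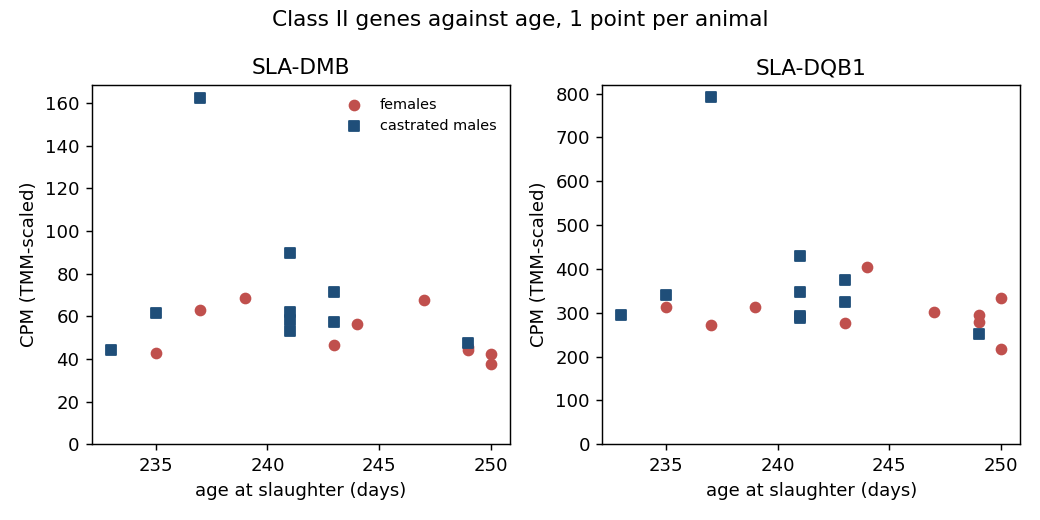
CPM of SLA-DMB and SLA-DQB1, on axes that start at 0, against age at slaughter in days, 1 point per library, by labelled sex. Castrated male 1, at 237 days, is the highest point in both panels.

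The other class II chains with a locus were SLA-DRA, SLA-DMA and SLA-DOA, 3 beside the 2 genes, so 5 of 12 listed chains were measured. SLA-DRA, listed as HLA-DRA in the name table, encodes the DR alpha chain and was the most abundant at 557 FPKM. SLA-DQB1 stood at 0.735 ± 0.105 of its FPKM (SD, n = 20). SLA-DMA, the alpha chain that pairs with the SLA-DMB product, averaged 50.4 FPKM, close to SLA-DMB: the SLA-DMB to SLA-DMA ratio was 0.871 ± 0.109 (SD, n = 20), from 0.733 in female 1 to 1.16 in castrated male 1. SLA-DOA, the alpha chain of the DM inhibitor DO, averaged 11.6 FPKM. The order of mean FPKM was thus SLA-DRA, SLA-DQB1, SLA-DMA, SLA-DMB and SLA-DOA. On pig chromosome 7 of the RefSeq assembly Sscrofa11.1, SLA-DMB lies between BRD2 and SLA-DMA with SLA-DOA next, and SLA-DQB1 lies nearer SLA-DRA.

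All 5 chains, the 2 genes included, had log2 sex differences below 0, against 49.1% of all loci tested, and none passed the adjusted edgeR test. The values were -0.34 for SLA-DRA, -0.35 for SLA-DMA and -0.10 for SLA-DOA, and the median of the 5 was -0.34 against 0.00 over all loci. The median was -0.16 without castrated male 1, with 4 of 5 below 0 against 47.4% of all loci. The age slopes were below 0 in 5 of 5 (all loci, 49.8%), with a median of -0.16, and in 4 of 5 with a median of -0.02 without that library (all loci, 48%).

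Genes that switch class II on or prepare its peptides had 13 of 18 members with a locus. Among the regulators, CIITA, the master activator of class II transcription, averaged 15.6 ± 5.48 CPM with a log2 sex difference of -0.20. RFX5, NFYC and NFYB, which bind class II promoters, averaged 33.4, 61.8 and 34.9 CPM with differences of -0.07, 0.02 and -0.03. The lysosomal proteases CTSB, CTSS, CTSH, LGMN, CTSC and CTSL averaged 1276, 691, 249, 242, 170 and 61.0 CPM. Their sex differences were -0.39, -0.29, -0.39, -0.35, -0.34 and -0.09. The CTSS locus spanned 3 gene identifiers. IFI30, a reductase that unfolds proteins for processing, averaged 63.5 CPM with a difference of -0.38. SPPL2A, which cuts the invariant chain remnant, averaged 50.1 CPM with -0.05, and MARCHF8, a ubiquitin ligase that removes class II from the surface, averaged 98.9 CPM with -0.16. In all, 12 of 13 lay below 0 (median -0.20), also without castrated male 1 (median -0.12), against 49.1% and 47.4% of all loci tested. By edgeR 0 of 13 passed the adjusted test and 2 had an unadjusted p below 0.05, against 0% and 4.33% of all loci. Of the 13 age slopes 10 lay below 0, with a median of -0.15, and 9 without castrated male 1 (all loci, 49.8% and 48%).

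**Figure D4:**
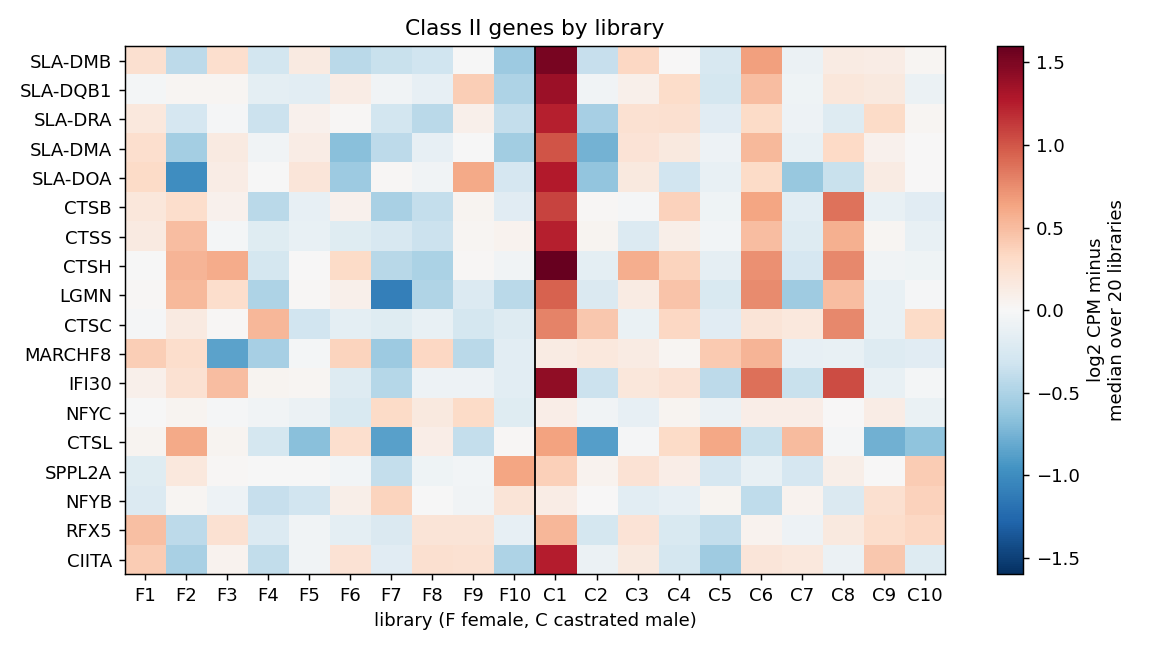
Level of each of the 18 class II genes with a locus in every library, as log2 CPM minus the gene's median over the 20 libraries; colours run from -1.6 to 1.6. Castrated male 1 holds the highest value of 14 of the 18 genes.

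SLA-DMB and SLA-DQB1 varied together over animals. With sex means removed, their log2 CPM gave Pearson r = 0.81 (two-sided permutation p = 0.00018, adjusted over 27 correlations 0.00069) and Spearman rho = 0.55 (p = 0.0119, adjusted 0.0248), n = 20. Without castrated male 1 and female 10, the libraries farthest from the median of SLA-DQB1, r was 0.48 (adjusted permutation p = 0.105), so passing the threshold rested on those libraries. It was 0.56 without castrated male 1 alone (adjusted permutation p = 0.0345). Among females r was 0.35 and among castrated males 0.95, a difference that was not tested. The log2 CPM ratio of SLA-DQB1 to SLA-DMB was 2.56 ± 0.31 in females and 2.43 ± 0.18 in castrated males (SD, n = 10 each). The means differed by 0.13 (two-sided permutation p = 0.274).

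**Figure D5:**
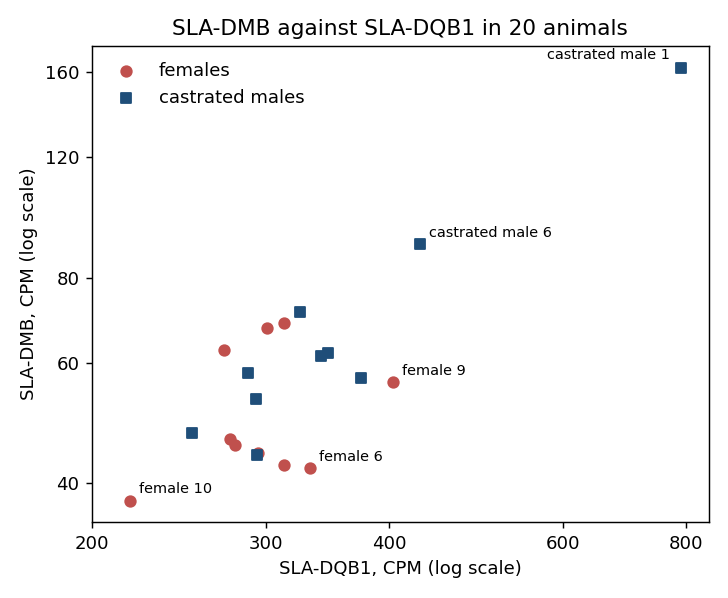
SLA-DMB (vertical) against SLA-DQB1 (horizontal) in CPM, both axes log, 1 point per library, by labelled sex. Castrated male 1 lies at the upper right, and r over the remaining 19 libraries, with sex means removed from log2 CPM, is 0.56.

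SLA-DMB had a higher correlation with the 3 other class II chains than with SLA-DQB1, a difference that was not tested. With their summed CPM it gave r = 0.90 and rho = 0.79 (adjusted permutation p = 0.000135 and 0.00216), and r = 0.76 without castrated males 1 and 2 (adjusted permutation p = 0.0081). SLA-DQB1 gave r = 0.83 and rho = 0.62 with the same sum, and r = 0.62 without those libraries (adjusted permutation p = 0.0298). SLA-DRA filled most of that sum, at 678 CPM against 49.8 for SLA-DMA and 23.3 for SLA-DOA. Taken alone in that order, the 3 chains gave r = 0.88, 0.90 and 0.83 with SLA-DMB, and 0.83, 0.64 and 0.64 with SLA-DQB1. Among 15786 other loci with a mean of at least 1 CPM, the named genes most like SLA-DMB by Pearson r over the 20 libraries were SLA-DMA (0.90), SLA-DRA (0.88), ARHGAP15 (0.87), RASGRP4 (0.87), a locus spanning CD300C and CD300LB (0.87), IL10RA (0.87), CFP (0.86) and SMAP2 (0.86). IL10RA is a chain of the interleukin 10 receptor, and CFP is properdin of the complement system. SLA-DMA ranked first of all loci, with r = 0.88, when castrated male 1 was left out. Of the other 7, IL10RA and SMAP2 were still among the 8 named genes most like SLA-DMB, and SLA-DRA ranked 41 of all loci.

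The named genes most like SLA-DQB1 were others: GRB2 (0.88), RHBDF2 (0.88), CSK (0.87), ZNF710 (0.86), IKBKE (0.86), MYD88 (0.85), EFHD2 (0.84) and DOK2 (0.84). GRB2, CSK and DOK2 act in tyrosine kinase signalling, and MYD88 is an adaptor of Toll-like receptors. The order depended on castrated male 1: when it was left out, EFHD2 alone was still among the 8. CSK then ranked 15 of all loci, ZNF710 16, MYD88 32, RHBDF2 50, GRB2 56, DOK2 227 and IKBKE 229. Their r fell but stayed above 0, from 0.65 for IKBKE to 0.79 for CSK, with 0.81 for EFHD2. Among all loci SLA-DRA ranked 17 in likeness to SLA-DQB1, SLA-DMB 28, SLA-DOA 605 and SLA-DMA 628. Without castrated male 1 those ranks were 536, 724, 3739 and 2295. CIITA gave r = 0.77 with SLA-DMB and 0.76 with SLA-DQB1, and 0.55 and 0.51 without castrated male 1, where its rank went from 132 to 489 for SLA-DMB and from 91 to 1145 for SLA-DQB1. The other regulators differed. RFX5, NFYC and NFYB gave r = 0.71, 0.23 and -0.27 with SLA-DMB, and 0.47, 0.41 and -0.10 with SLA-DQB1. Without castrated male 1 they gave 0.66, 0.17 and -0.56 with SLA-DMB, and 0.26, 0.48 and -0.36 with SLA-DQB1.

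Bulk RNA cannot tell fewer cells of a type from less RNA per cell. Summed markers of class II bearing cells moved with both genes over the 20 libraries, and their part in the results was not tested. Of the macrophage markers 12 of 17 had a locus, none at 0 in all libraries, led by CD68, C1QA, MRC1 and CSF1R. Their summed CPM ran from 211 to 632 in females and from 323 to 1448 in castrated males, with castrated male 1 highest. All 12 had sex differences below 0 (median -0.64), against 49.1% of all loci tested. An unadjusted edgeR p below 0.05 was reached by 4 of them (all loci, 4.33%). Without castrated male 1, 11 lay below 0 (median -0.28), against 47.4% of all loci, and 0 reached that p. The sum gave r = 0.79 with SLA-DMB and 0.75 with SLA-DQB1, and 0.65 and 0.57 without castrated male 1 (adjusted permutation p = 0.0194 and 0.0337). Without castrated males 1 and 6, the farthest from the median of this sum, the values were 0.52 and 0.43 (adjusted permutation p = 0.0866 and 0.119), so passing the threshold rested on those libraries.

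B and plasma cell markers had 5 of 14 members with a locus and low sums, 5.14 to 13.4 CPM in females and 7.08 to 40.1 in castrated males. Their sum gave r = 0.82 with SLA-DMB, and 0.59 without the 2 farthest libraries, castrated males 1 and 6 (adjusted permutation p = 0.0419). With SLA-DQB1 it gave r = 0.76, and 0.42 without those libraries, which no longer passed (adjusted permutation p = 0.119). BLNK, CD22, MZB1, FCRL1 and MS4A1 averaged 7.75, 2.35, 1.35, 0.693 and 0.491 CPM, so BLNK led the sum. In that order r was 0.82, 0.68, 0.22, 0.81 and 0.14 with SLA-DMB, and 0.70, 0.59, 0.35, 0.74 and 0.24 with SLA-DQB1. Of the 5, 4 had sex differences below 0 (median -0.64), also without castrated male 1 (median -0.21), against 49.1% and 47.4% of all loci. T and NK cell markers, 12 of 18 with a locus, summed to 100.4 to 167 CPM in females and 106 to 207 in castrated males, with castrated male 6 highest. They gave r = 0.66 with SLA-DQB1, and 0.62 without the 2 farthest libraries, castrated male 6 and female 10 (adjusted permutation p = 0.0112). With SLA-DMB they gave r = 0.50 (adjusted permutation p = 0.0321), and the call was lost without those 2 (0.42, adjusted permutation p = 0.119) and without castrated male 1 (0.47, adjusted permutation p = 0.0871). CD247, NKG7, CD2 and CD8A averaged 78.8, 14.9, 10.9 and 6.84 CPM, so CD247 led the sum. CD247 alone gave r = -0.30 with SLA-DMB and -0.03 with SLA-DQB1. Every other member with a locus gave r above 0 with both genes. Of the 12, 11 had sex differences below 0 (median -0.60), against 49.1% of all loci. An unadjusted edgeR p below 0.05 was reached by 7 (all loci, 4.33%). Without castrated male 1, 10 lay below 0 (median -0.49), against 47.4% of all loci. Dendritic cell markers, 5 of 15 with a locus, were led by XCR1 and CD209, at 66.5 and 43.3 CPM. FLT3 and FCER1A followed at 1.62 and 1.53 CPM, and the XCR1 locus spanned 2 gene identifiers. The dendritic cell markers summed to 56.0 to 166 CPM in females and 72.7 to 282 in castrated males. Their sum gave r = 0.72 with SLA-DMB and 0.69 with SLA-DQB1. Leaving out castrated male 1, those were 0.50 and 0.42 and no longer passed (adjusted permutation p = 0.061 and 0.122). Over the 20 libraries XCR1, CD209, FLT3, FCER1A and CCR7 alone gave r = 0.48, 0.70, 0.45, 0.18 and 0.50 with SLA-DMB. In that order they gave 0.48, 0.64, 0.51, -0.13 and 0.55 with SLA-DQB1. All 5 had sex differences below 0 (median -0.38), and 4 did without castrated male 1 (median -0.24), against 49.1% and 47.4% of all loci.

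Genes of MHC class I, the system that shows peptides from inside the cell, had 6 of 18 members with a locus. No class I heavy chain, B2M or TAP1 was among them, so the class I chains themselves were not measured. CALR, TAPBP, PDIA3 and ERAP1 led the sum, at 520, 201, 147 and 63.2 CPM. The sum of the 6 gave r = 0.72 with SLA-DQB1, and 0.63 without the 2 farthest libraries (adjusted permutation p = 0.0298). With SLA-DMB it gave 0.35 (adjusted permutation p = 0.159). CALR, the largest part of the sum, alone gave r = 0.15 with SLA-DMB. TAPBP, PDIA3, ERAP1, TAP2 and PSMB9 gave 0.65, 0.64, 0.49, 0.61 and 0.66. With SLA-DQB1 the 6, in the same order, gave 0.57, 0.80, 0.77, 0.57, 0.51 and 0.53. Without castrated male 1 they gave -0.20, 0.39, 0.14, -0.13, 0.52 and 0.41 with SLA-DMB. Interferon gamma response genes, 12 of 19 with a locus, gave r = 0.61 with SLA-DMB and 0.56 with SLA-DQB1. Both rested on castrated male 1, without which r was 0.16 and -0.035. Costimulation genes such as CD86 and CD83, 5 of 8 with a locus, gave 0.70 and 0.81. Without castrated male 1 they gave 0.43, which no longer passed (adjusted permutation p = 0.120), and 0.63. Neither passed without castrated males 1 and 6 (0.24 and 0.51, adjusted permutation p = 0.411 and 0.0866). The summed genes of class II control and processing, a sum led by CTSB and CTSS, gave 0.68 and 0.76. Leaving out castrated male 1 gave 0.41, which no longer passed (adjusted permutation p = 0.135), and 0.54, and neither passed without castrated males 1 and 8 (0.44 and 0.57, adjusted permutation p = 0.118 and 0.0526). Endothelial markers, 7 of 12 with a locus, gave 0.46 with SLA-DQB1 (adjusted permutation p = 0.0493), 0.27 without castrated male 1 (adjusted permutation p = 0.352) and 0.65 without castrated male 6 and female 1, the farthest from the median of their sum (adjusted permutation p = 0.00891). With SLA-DMB they gave 0.17 and did not pass. Adipocyte markers gave -0.23 and -0.07, and neither passed. PLIN4, PLIN1, CIDEC, LIPE, PNPLA2, GPD1, PPARG and SLC2A4, in order of mean CPM, differed. With SLA-DMB they gave r = 0.03, -0.31, -0.57, -0.14, 0.03, -0.58, -0.65 and -0.26. With SLA-DQB1 they gave 0.19, -0.20, -0.66, -0.02, 0.25, -0.42, -0.57 and -0.30. Without castrated male 1 the lowest were -0.33 (PPARG) with SLA-DMB and -0.24 (CIDEC) with SLA-DQB1. Of the 27 correlations 19 passed at an adjusted permutation p below 0.05, and 6 passed without the 2 farthest libraries of each. Leaving out castrated male 1, 12 passed, among them SLA-DMB with total counts, which was not among the 19. Leaving out the libraries numbered 10 ended 2 of the 19 calls, SLA-DMB with T and NK cell markers (0.48) and SLA-DQB1 with endothelial markers (0.47), both at an adjusted permutation p of 0.0581.

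Depth stood beside SLA-DMB as well. Its log2 CPM gave r = 0.44 with total counts (adjusted permutation p = 0.0805) and rho = 0.61 (adjusted permutation p = 0.0156). Leaving out castrated male 1, r was 0.62 and passed (adjusted permutation p = 0.0194), and it was 0.32 without female 10 and female 1, the libraries of lowest and highest depth (adjusted permutation p = 0.278). SLA-DQB1 gave r = 0.20. The 10 loci of mitochondrially encoded proteins took 8.49% of counts in castrated male 1, the lowest share. The library labelled castrated male 10 had the highest, 26.3%. Their share gave r = -0.09 with SLA-DMB and -0.38 with SLA-DQB1, and neither passed. The part of depth and of that share in the results was not tested.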

How the data were processed

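The authors deposited raw read counts for 23483 Cufflinks loci, and FPKM of loci and of 63418 isoforms. The build Sscrofa10.2, DESeq2, Cufflinks 2.1.1, Bowtie2 2.1.0.0 and TopHat2 2.0.8 are listed, without roles, in the submitters' processing notes. Not given in the sources used here were the counting tool, annotation, strand setting and treatment of reads with multiple matches, so reads shared by similar class II genes may have been split. Per the labels, libraries were oligo-dT selected and sequenced as paired 100 bp reads. Symbols were matched by Ensembl identifier for 9360 of the 12707 loci with one. Isoforms were tied to loci by matching FPKM sums.

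Counts were fitted with edgeR 4.0.16 (R 4.3.3): TMM factors, filterByExpr (21587 loci kept), quasi-likelihood tests and Benjamini-Hochberg adjustment over all loci at 0.05. Standard errors are the log2 value divided by the square root of F, and intervals are 95%. Both genes passed the filter. Log2 CPM used a prior count of 2. Correlations removed sex means and used 100000 two-sided permutations, and sums over lists left out both genes. The smallest p they can give is 1e-05. DESeq2 1.42.0, limma 3.58.1 (voom, and trend on log2(FPKM + 0.1) and log2(FPKM + 1)), other scalings, no filter, and each library left out were alternatives. The fits were tested on simulated data. Python 3.11.15, scipy 1.17.1 and matplotlib 3.10.9 were used.

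Each library is a separate animal. No 2 of 190 library pairs were identical. Replicate numbers follow deposit order and pair nothing. The 2 genes and the 11 lists were chosen with earlier results of these data known. The text names every class II gene with a locus and up to 4 members of other lists by mean CPM. For B and plasma cells, dendritic cells, MHC class I and adipocytes it names every member with a locus. It also names the 8 named loci most like each gene, and isoforms with at least 5% of their locus. CD86 and CD83 are the costimulation genes of highest CPM. Sequences were not analysed here.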

Additional observations from a re-analysis of the deposited data

Results flagged for a closer look

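Each value here lay far from the nearest other library of its labelled group, measured as that gap over the whole range of the group. Of 42 sets of 10 libraries examined 11 were so marked. Chance marks about 1 in 20 of separate sets, but these sets share the same animals. The sum of class II chains also holds genes marked alone, so the marks are not separate results. Of these, 10 were in castrated male 1. SLA-DMB was 162.2 CPM there (next 89.4), SLA-DQB1 791.1 (next 430.5), SLA-DRA 1539 (next 806), SLA-DOA 54.6 (next 27.9) and CIITA 35.1 (next 19.8). Its summed CPM was 2644 for the class II chains (next 1422), 145 for costimulation, 1413 for MHC class I, 1026 for the interferon gamma response and 282 for dendritic cell markers. The remaining one was female 3, whose adipocyte markers summed to 3590 CPM, below the next female at 5496.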

How the results depend on the processing

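Of 861 values under other settings, 817 kept their direction and their side of the threshold, 30 correlations kept their direction and no longer passed, 3 newly passed and 11 reversed. The sex and age tests had little room to change sides, since their adjusted p started at 0.871 or above, and the ratio had no adjusted p. Leaving out the 2 farthest libraries was not among these settings, and only 6 of the 27 correlations passed then. No setting brought either gene past the adjusted threshold for sex, age or the difference of age slopes. Leaving out 1 library at a time, the log2 sex difference ran from -0.52 to -0.23 for SLA-DMB and from -0.37 to -0.12 for SLA-DQB1, with castrated male 1 giving the values nearest 0. The age slopes ran from -0.45 to -0.14 and from -0.30 to -0.07.

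The SLA-DMB difference of age slopes reversed to -0.18 with limma-voom and to -0.24 without the libraries numbered 10 and castrated male 1, and ran from -0.31 to 0.64 with 1 library left out. The correlation of SLA-DQB1 with total counts was -0.082 without the libraries numbered 10. With 1 library left out, correlations ran from -0.10 to 0.43 (SLA-DMB with MHC class I), -0.19 to 0.30 (SLA-DMB with endothelial markers), -0.22 to 0.39 (SLA-DMB with the mitochondrial share), -0.035 to 0.63 (SLA-DQB1 with the interferon gamma response) and -0.27 to 0.16 (SLA-DQB1 with adipocyte markers), reversing without castrated male 1. The cause was not tested. On log2(FPKM + 0.1), correlations with adipocyte markers passed, at -0.54 for SLA-DMB and -0.51 for SLA-DQB1 (adjusted permutation p = 0.0243 and 0.0362).

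By sex, edgeR called 0 loci, 18 without the libraries numbered 10, DESeq2 5, limma-voom 9, and limma-trend on FPKM 12 and 11. No paired analysis was possible because replicate numbers follow deposit order and the animals are separate. Depth did not limit detection of either gene, but 10 animals a group and the spread of castrated male 1 limit the precision.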
